A study of Mus musculus with 4 samples.

Results

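The HOX genes of fetal mouse lung were taken from a table of 22556 genes as every row whose symbol was Hoxa, Hoxb, Hoxc or Hoxd followed by a number only. The rule gave 39 genes, of which 11 lie in the Hoxa, 10 in the Hoxb, 9 in the Hoxc and 9 in the Hoxd cluster. Whole lungs of embryos at E16.5 were sequenced from 2 genotypes with 2 libraries each, which are numbered 1 and 2 within each genotype. Control embryos were Shh-Cre; Stk11F/+, with 1 floxed and 1 intact allele of Stk11, and Shh-Stk11 embryos were Shh-Cre; Stk11F/F, so that every embryo carried the driver and at least 1 floxed allele. Shh-Cre recombines in the endoderm that forms the airway and alveolar epithelium, whereas mesenchyme, vessels and blood keep an intact gene. The strain label read C57BL/6, the methods of the study described mixed backgrounds, and the labels gave no sex, litter or pooling of the lungs. P-values therefore measure the spread between these samples, which may be in part technical.

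HOX genes encode homeodomain transcription factors that give cells their position along the body axis. They stand in 4 clusters, and genes at the same place in different clusters form a paralog group, numbered from 1 at the end that is active early and far anterior to 13 at the end that is active late and posterior. Retinoic acid induces the low-numbered genes, Polycomb complexes hold the silent stretches of a cluster closed and Trithorax complexes keep the active stretches open. In the lung HOX expression is known above all from the mesenchyme, where Hoxa5 is needed for normal growth of the airways and for respiratory function at birth.

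Values are FPKM, in which the reads of a gene are divided by transcript length and library size, so that levels of different genes may be set side by side as far as the authors' transcript models allow. The depth estimated from the low values was 30.6 M to 37.8 M reads per library, at which a single read on Hoxd9 amounted to 0.0139 FPKM in Control 1. Stk11, the gene deleted in the epithelium, was at 44.0 and 45.5 FPKM in Control and at 29.5 and 25.95 FPKM in Shh-Stk11. Its log2 fold change was -0.69 ± 0.13 (SE; limma, adjusted p = 0.0499), and the call was lost in 12 of 15 alternative settings, among them the omission of any 1 library. Markers of lung epithelium, mesenchyme and endothelium were present in every library, with summed levels of at least 9300, 878 and 479 FPKM. Shh-Stk11 2 was the only library with Y-linked transcripts, with Ddx3y at 23.5 FPKM against at most 0.0285 FPKM in the other libraries. Among 13770 genes tested, 313 passed an adjusted p of 0.05 (2.27%), of which 178 were lower in Shh-Stk11 (1.29%).

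HOX genes at 0.5 FPKM or more belonged to the Hoxa and Hoxb clusters only, and none of them had a group number above 8. Of the 39 genes, 14 averaged 0.5 FPKM or more across the libraries, and each of these 14 was above that level in all 4 libraries. Among them were Hoxa2 to Hoxa7 and Hoxb2 to Hoxb8. The other 25 genes, among them Hoxb1 with a mean of 0.0155 FPKM, were below 0.5 FPKM, and 10 of them were listed at 0 in all 4 libraries. Of the 18 Hoxc and Hoxd genes none reached the limit. The lowest means described here inside the limit were 0.734 FPKM for Hoxb8, 0.751 for Hoxa7 and 0.791 for Hoxa6. The highest means outside it were 0.165 FPKM for Hoxd8 and 0.162 FPKM for Hoxb9, so that no gene lay close below the limit.

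**Figure D1:**
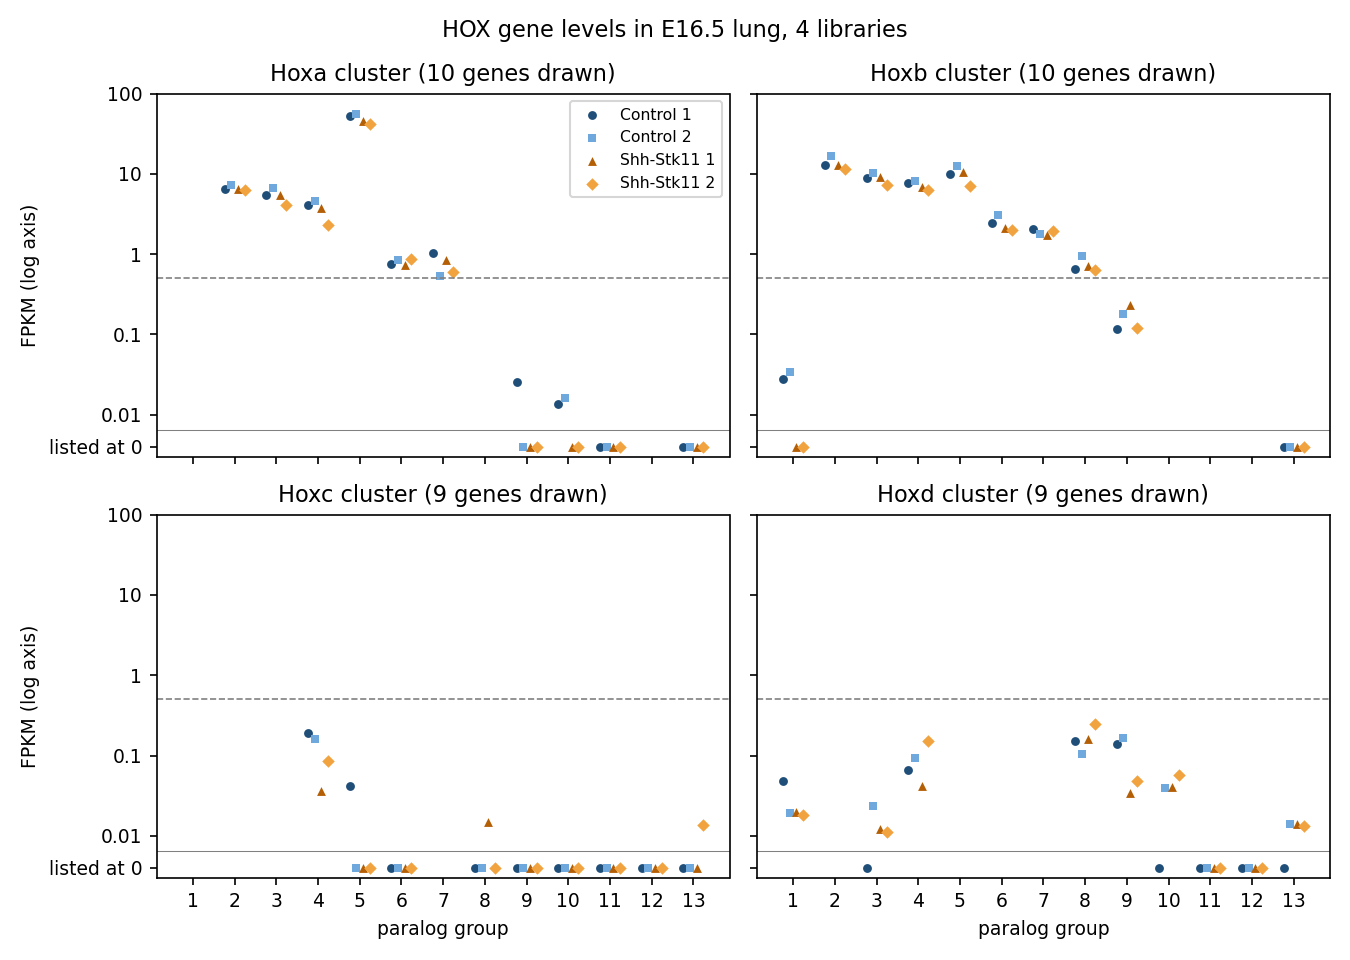
FPKM of 38 of the 39 HOX genes on a log axis, by cluster (panels) and paralog group (horizontal axis), with 1 point per library and values of 0 drawn on a separate line at the bottom; the dashed line marks 0.5 FPKM. Hoxa5 stands highest at 42.1 to 54.9 FPKM, the Hoxa and Hoxb levels drop beyond group 8, and all Hoxc and Hoxd points lie below the dashed line.

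Summed over all 39 genes, HOX transcripts came to 115 and 130 FPKM in Control and to 107 and 94.5 FPKM in Shh-Stk11. The Hoxa cluster held 58.4% to 61.0% of this sum in the 4 libraries and the Hoxb cluster 38.5% to 41.2%. Hoxc genes held 0.0479% to 0.202% and Hoxd genes 0.2999% to 0.579%. The division between clusters was thus nearly fixed from library to library, with ranges that differed by less than 3 points for either expressed cluster. By paralog group, group 5 alone held 51.5% to 53.4% of the sum, group 2 held 16.7% to 18.9%, group 3 held 12.1% to 13.6% and group 4 held 9.41% to 10.3%. All genes of groups 9 to 13 together held 0.254% to 0.319%, and the 5 genes of groups 11 and 12 were listed at 0 throughout. Across the 39 genes the Spearman correlation of group number and mean level was -0.69, and across the 21 Hoxa and Hoxb genes it was -0.65, as a description of genes that share libraries and clusters. The level did not fall steadily with group number: group 5 held the largest share, and Hoxb1 and Hoxd1 of group 1 averaged 0.0155 and 0.0261 FPKM.

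Hoxa5, the HOX gene best known from lung mesenchyme, was the highest of all. It was at 51.7 and 54.9 FPKM in Control and at 44.9 and 42.1 FPKM in Shh-Stk11, above 91.8% of the genes in the table by its mean of 48.4 ± 5.92 FPKM (SD, n = 4). The next gene, Hoxb2, had a mean of 13.4 FPKM, and the ranges of Hoxa5 and Hoxb2 did not overlap. Then followed Hoxb5 at 9.98, Hoxb3 at 8.93, Hoxb4 at 7.25, Hoxa2 at 6.65, Hoxa3 at 5.44, Hoxa4 at 3.68, Hoxb6 at 2.39 and Hoxb7 at 1.87 FPKM. Each of these neighbours overlapped the next in range over the 4 libraries, although most kept the same order within each library. A second gap, with no overlap, separated Hoxb7 from Hoxa6, Hoxa7 and Hoxb8, whose ranges overlapped one another.

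Paralogs were not expressed alike, and the cluster that led changed along the series. Within each library Hoxb2 was 1.84 to 2.25 times Hoxa2, Hoxb3 was 1.52 to 1.78 times Hoxa3 and Hoxb4 was 1.77 to 2.73 times Hoxa4. In group 5 the order was turned, with Hoxa5 at 4.31 to 5.94 times Hoxb5. Hoxb6 was 2.30 to 3.63 times Hoxa6, and Hoxb7 was 2.0 to 3.40 times Hoxa7. In each of these 6 pairs the same gene was the higher in all 4 libraries.

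To show what sequence stands before genes of such different level, the 250 bases upstream of the RefSeq start site (GRCm38.p6) are given for Hoxa5 and for the group 4 genes with an entry. Hoxb4 had a mean of 7.25 FPKM, Hoxc4 of 0.118 FPKM and Hoxd4 of 0.0889 FPKM. The stretches lie at chr6:52204588-52204837 (minus strand) for Hoxa5, chr11:96318017-96318266 (plus) for Hoxb4, chr15:103034145-103034394 (plus) for Hoxc4 and chr2:74721728-74721977 (plus) for Hoxd4. Each is written 5′ to 3′ on the strand of the gene, and capitals mark matches on either strand to AGGTCA, the core half-site of retinoic acid receptors, to CCAAT and to TATAAA.
Hoxa5: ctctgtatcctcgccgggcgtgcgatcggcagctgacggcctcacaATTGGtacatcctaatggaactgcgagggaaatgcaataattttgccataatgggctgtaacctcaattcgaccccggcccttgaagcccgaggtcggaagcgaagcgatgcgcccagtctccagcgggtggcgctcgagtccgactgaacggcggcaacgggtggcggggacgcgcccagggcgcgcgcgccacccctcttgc
Hoxb4: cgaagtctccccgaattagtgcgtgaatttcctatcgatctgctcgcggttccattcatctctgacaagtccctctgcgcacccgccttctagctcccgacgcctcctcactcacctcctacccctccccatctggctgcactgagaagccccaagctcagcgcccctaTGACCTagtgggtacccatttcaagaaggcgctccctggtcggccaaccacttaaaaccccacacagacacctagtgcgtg
Hoxc4: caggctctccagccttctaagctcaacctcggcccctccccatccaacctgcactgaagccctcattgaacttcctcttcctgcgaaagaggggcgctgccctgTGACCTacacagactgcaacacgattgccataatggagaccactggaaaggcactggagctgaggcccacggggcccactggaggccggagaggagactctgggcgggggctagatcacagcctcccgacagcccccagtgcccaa
Hoxd4: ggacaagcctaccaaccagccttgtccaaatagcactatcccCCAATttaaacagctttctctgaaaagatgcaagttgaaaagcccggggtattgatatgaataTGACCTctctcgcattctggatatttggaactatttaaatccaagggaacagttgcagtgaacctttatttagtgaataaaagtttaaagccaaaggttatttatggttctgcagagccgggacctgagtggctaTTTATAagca
The group 4 stretches each held 1 match to AGGTCA, all read as TGACCT on the strand of the gene, which began at -81 from the start site in Hoxb4, -146 in Hoxc4 and -145 in Hoxd4. The letters were thus present before a gene at several FPKM and before genes near 0.1 FPKM alike. Hoxa5 had none upstream and 1 at base 42 of the transcript. The RefSeq start need not be the one used in lung, and a match is not a bound site.

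RefSeq windows of 300 bases (250 before and 50 after the start) were found for 22 of the 39 genes, with 24 windows. AGGTCA occurred in 29.2% of these windows against 16.3% of all 32851 windows, CCAAT in 62.5% against 37.4%, and TATAAA in 16.7% against 13.6%. TGACAG, the core bound by MEIS proteins, occurred in 8.33% against 19.2%, and TGATTNAT, a joint HOX and PBX site, in 8.33% against 3.22%. Motifs were searched on both strands, and overlaps between motifs were allowed. HOX windows held a median of 14.5 CG dinucleotides against 7 in all windows. The 7 windows of genes at or above 0.5 FPKM had a median of 14 CG and the 17 windows of genes below it a median of 15, so that CG number did not separate the genes on either side of 0.5 FPKM.

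No HOX gene passed the genotype comparison. Of the 14 genes tested with limma, 0 had an adjusted p below 0.05, and 1, Hoxa5, had an unadjusted p below 0.05, against 15.2% of all genes tested. All 14 log2 fold changes were below 0, as were 58.3% of all genes. With quantile normalization or median ratio scaling 12 of the 14 remained below 0, Hoxa6 and Hoxa7 being above, and with a trend on transcript length and GC content taken off 10 remained, Hoxa2, Hoxa6, Hoxa7 and Hoxb7 being above. The median was -0.25 over the 14 genes, -0.29 over the 7 Hoxa genes and -0.24 over the 7 Hoxb genes, against -0.05 over all genes tested. With the length and GC trend taken off these medians were -0.13, -0.17 and -0.12, against -0.013 over all genes. Both Shh-Stk11 libraries lay below both Control libraries for 7 of the 14 genes, against 27.6% of all genes, among them Hoxa2 to Hoxa5, Hoxb4 and Hoxb6. With 2 against 2 libraries an exact permutation test cannot give a two-sided p below 0.33, and in whole lung fewer cells of a type and less RNA per cell cannot be told apart.

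**Figure D2:**
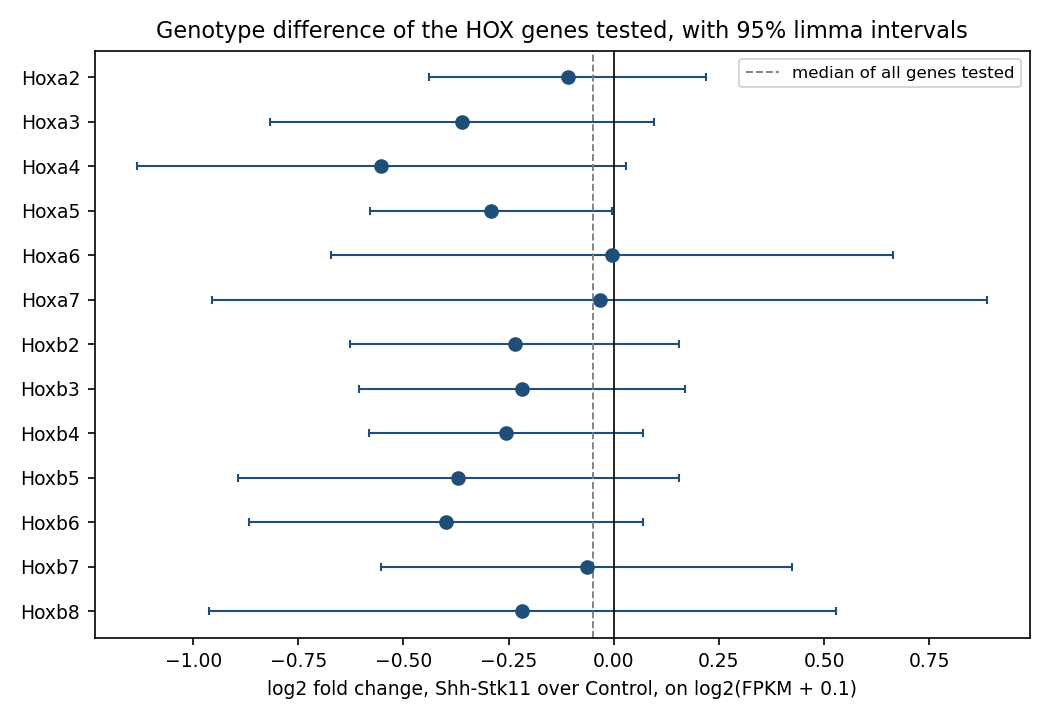
Log2 fold change (Shh-Stk11 over Control, horizontal axis) of 13 of the 14 HOX genes tested, with 95% intervals from limma; the solid line marks 0 and the dashed line the median of all genes tested. Every point lies below 0, between -0.55 and -0.0048, and only the interval of Hoxa5 ends below 0, before adjustment.

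The anterior Hoxa genes were examined first. Hoxa2, which specifies the second branchial arch, was at 6.53 and 7.30 FPKM in Control and at 6.48 and 6.30 FPKM in Shh-Stk11. Hoxa3, required for thymus and parathyroid, was at 5.50 and 6.73 FPKM in Control and at 5.40 and 4.12 FPKM in Shh-Stk11. In both genes the groups did not overlap, but Control 1 and Shh-Stk11 1 lay close together. Their log2 fold changes were -0.11 and -0.36, with adjusted p-values of 0.754 and 0.444 (limma). With 1 library left out Hoxa2 lay between -0.19 (without Control 1) and -0.031 (without Control 2), and Hoxa3 between -0.55 (without Shh-Stk11 1) and -0.17 (without Shh-Stk11 2).

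Hoxa4, which patterns the cervical vertebrae, was at 4.07 and 4.65 FPKM in Control and at 3.70 and 2.32 FPKM in Shh-Stk11. Its log2 fold change of -0.55 ± 0.24 (SE, adjusted p = 0.354) was the lowest among the 14, and the gap between the Shh-Stk11 libraries, 0.65 on the log2 scale, was wider than the genotype difference. The fold change moved to -0.88 when Shh-Stk11 1 was left out and to -0.23 when Shh-Stk11 2 was, where Hoxa5 at -0.25 and Hoxb6 at -0.35 were lower than Hoxa4. Hoxa5 differed by -0.29 ± 0.12 (SE, 95% interval -0.58 to -0.0051, adjusted p = 0.317), which in mean FPKM was 18.4% less in Shh-Stk11. The gaps between its replicates were 0.09 in either group, so that Hoxa5 combined the highest level with small replicate gaps. Without Control 2 or without Shh-Stk11 2, 0 of the 14 HOX genes had an unadjusted p below 0.05, whereas 1 had it without Control 1 and 3 had it without Shh-Stk11 1. The count was also 0 with a pseudocount of 0.01, quantile normalization, median ratio scaling, eBayes without a trend, the replicate block and the length and GC trend taken off, where Hoxa5 was at -0.17.

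The remaining Hoxa genes showed no separation of the genotypes. Hoxa6 was at 0.747 and 0.837 FPKM in Control and at 0.725 and 0.856 FPKM in Shh-Stk11, with a log2 fold change of -0.0048 ± 0.28 (SE). Hoxa7, which acts in the thoracic axis, was at 1.02 and 0.526 FPKM in Control and at 0.854 and 0.603 FPKM in Shh-Stk11. The Control libraries of Hoxa7 lay outside both Shh-Stk11 libraries, and its interval of -0.96 to 0.89 allows a change of either sign.

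In the Hoxb cluster the genes of groups 2, 3 and 5 overlapped between genotypes. Hoxb2, which acts with Hoxb1 in the hindbrain, was at 12.7 and 16.4 FPKM in Control and at 12.98 and 11.6 FPKM in Shh-Stk11. Hoxb3 was at 8.97 and 10.2 FPKM in Control and at 9.21 and 7.33 FPKM in Shh-Stk11. Hoxb5, a gene of the branching lung mesenchyme, was at 9.83 and 12.6 FPKM in Control and at 10.4 and 7.08 FPKM in Shh-Stk11. In all 3 genes Control 2 was highest, Shh-Stk11 2 lowest, and Shh-Stk11 1 lay above Control 1. Their log2 fold changes were -0.24, -0.22 and -0.37, with adjusted p-values of 0.553, 0.582 and 0.493. Each of the 3 depended on single libraries: Hoxb2 lay between -0.42 (without Control 1) and -0.052 (without Control 2), Hoxb3 between -0.38 (without Shh-Stk11 1) and -0.056 (without Shh-Stk11 2), and Hoxb5 between -0.64 and -0.095 without the same Shh-Stk11 libraries.

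Hoxb4, known for expanding blood stem cells, was at 7.57 and 8.22 FPKM in Control and at 6.86 and 6.33 FPKM in Shh-Stk11. Hoxb6, a gene of lateral mesoderm, was at 2.45 and 3.04 FPKM in Control and at 2.12 and 1.97 FPKM in Shh-Stk11. For these genes the groups did not overlap, and the log2 fold changes were -0.26 ± 0.14 (SE, adjusted p = 0.445) and -0.40 ± 0.19 (SE, adjusted p = 0.408). That of Hoxb6 was -0.25 without Control 2. Hoxb7 was at 2.05 and 1.79 FPKM in Control and at 1.71 and 1.95 FPKM in Shh-Stk11. Hoxb8, whose loss causes excessive grooming in mice, was at 0.656 and 0.947 FPKM in Control and at 0.704 and 0.629 FPKM in Shh-Stk11. Both overlapped between genotypes, with log2 fold changes of -0.06 and -0.22. For 4 of the 14 genes, among them Hoxa5, Hoxb4 and Hoxb6, the genotype difference was larger than the wider of the 2 replicate gaps, which was true of 34.1% of all genes tested.

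The HOX values differed by library within each genotype as well. Control 2 was the highest library for 11 of the 14 genes and Shh-Stk11 2 the lowest for 11. The median deviation from the mean over the 4 libraries was 0.04 and 0.21 in Control 1 and 2 and -0.04 and -0.22 in Shh-Stk11 1 and 2 on the log2 scale. Across the genotypes the medians of Control 1 and Shh-Stk11 1 thus lay closest together and those of Control 2 and Shh-Stk11 2 farthest apart. The replicate numbers need not pair the libraries. Hoxa7 was the clearest departure, with its lowest value in Control 2. Without Control 2 the median over the 14 genes was -0.20 and without Shh-Stk11 2 it was -0.16, whereas it was -0.35 without Control 1 and -0.33 without Shh-Stk11 1.

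**Figure D3:**
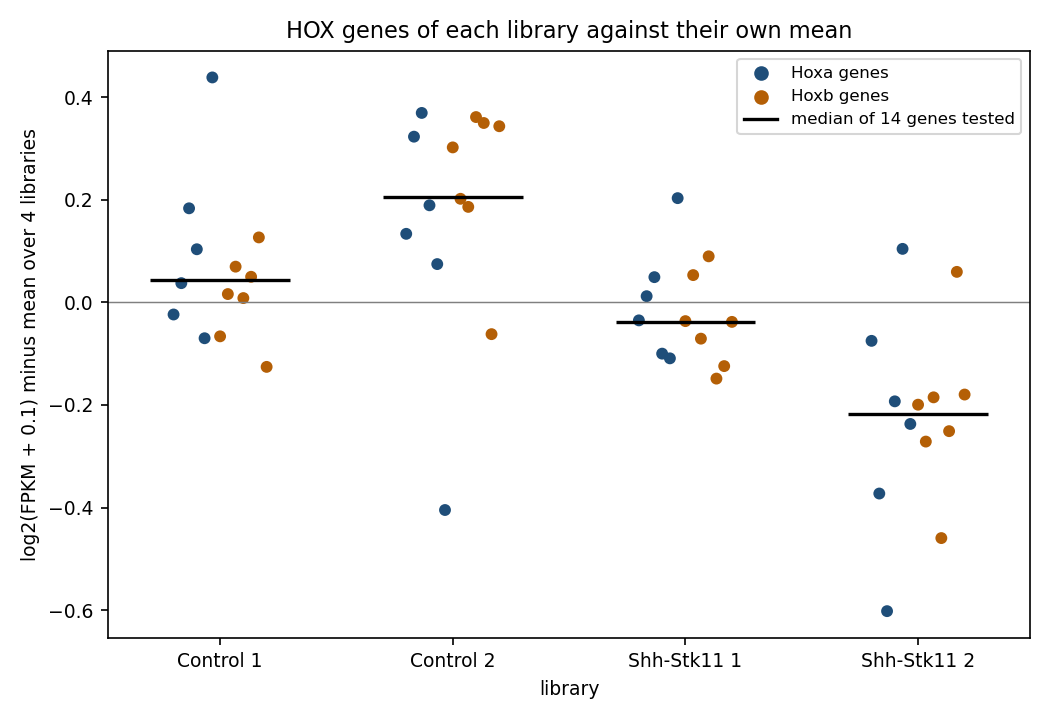
Deviation of 13 of the 14 HOX genes tested, each from its own mean over the 4 libraries, on the log2(FPKM + 0.1) scale (vertical axis), by library (horizontal axis), with Hoxa and Hoxb genes in different colours and a black bar at the median of all 14. Control 2 has a median of 0.21 and Shh-Stk11 2 of -0.22, and the bars of Control 1 and Shh-Stk11 1 lie near 0.

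Marker lists of cell types were set beside the HOX genes, and they did not all share the direction or the order of libraries. Of smooth muscle markers tested 5 of 6 were lower in Shh-Stk11 (median log2 fold change -0.12), and of mesothelium markers 3 of 5 (-0.22). Among immune markers 4 of 5 were higher (0.09), and among those of neurons and glia 2 of 3 (0.79). Cartilage markers had 1 of 2 higher (0.08). The summed level of 7 heart muscle markers was 113 and 232 FPKM in Control and 139 and 56.6 FPKM in Shh-Stk11, and that of 6 skeletal muscle markers was 5.50 and 12.8 FPKM in Control and 5.83 and 2.22 FPKM in Shh-Stk11. Both sums were highest in Control 2 and lowest in Shh-Stk11 2, and Myod1, the defining factor of skeletal muscle, was listed at 0 in every library. Of 12 mesenchyme markers 10 were lower in Shh-Stk11, 7 of them without overlap, 6 had an unadjusted p below 0.05 and 0 passed the test (limma), with a median log2 fold change of -0.28 and summed levels of 1197 and 1048 FPKM in Control and 961 and 878 FPKM in Shh-Stk11. Of 8 epithelial markers 7 were higher, with a median of 0.21 and 0 past the test, although their summed level, 18516 and 16837 FPKM in Control, was 9300 and 13499 FPKM in Shh-Stk11. Of this sum Sftpc, the single marker of the 8 that was lower, made up 17425.5 and 15784 FPKM in Control and 8005 and 12048 FPKM in Shh-Stk11. All 8 endothelial markers were lower, 6 without overlap, with a median of -0.34 and 0 past the test, and all 7 red blood cell markers tested were lower, 5 without overlap, with a median of -0.57 and 1, Hba-x, past the test (adjusted p = 0.0158). Of all genes tested 58.3% were lower, 27.6% were lower without overlap, 15.2% had an unadjusted p below 0.05 and 2.27% passed the test. Of these 13770 genes 5737 were higher. The part of these markers, and of sex, in the HOX values was not tested.

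Among the genes below 0.5 FPKM the read numbers were small. Hoxb9 corresponded to an estimated 11 and 14 reads in Control and 18 and 10 reads in Shh-Stk11. Hoxd8 corresponded to 7 and 4 reads in Control and 6 and 10 reads in Shh-Stk11, numbers that may be double this if its smallest step was 2 reads. Hoxd4 corresponded to 6 and 7 reads in Control and 3 and 12 in Shh-Stk11. All 3 genes were detected in every library. In FPKM, which allows for depth, Hoxd8 was at 0.151 and 0.104 in Control and at 0.1596 and 0.247 in Shh-Stk11, higher without overlap, whereas Hoxb9 and Hoxd4 overlapped. Hoxc4 corresponded to 13 and 9 reads in Control and 2 and 5 in Shh-Stk11, and Hoxd9, which acts in the posterior trunk and limb, to 10 and 10 reads in Control and 2 and 3 in Shh-Stk11. Both were lower in Shh-Stk11 without overlap in FPKM. When the filter on low values was dropped, their log2 fold changes were -0.80 (adjusted p = 0.234) and -0.84 (adjusted p = 0.156, limma), against 0.41 for Hoxd8 (adjusted p = 0.539), and none passed the threshold.

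**Figure D4:**
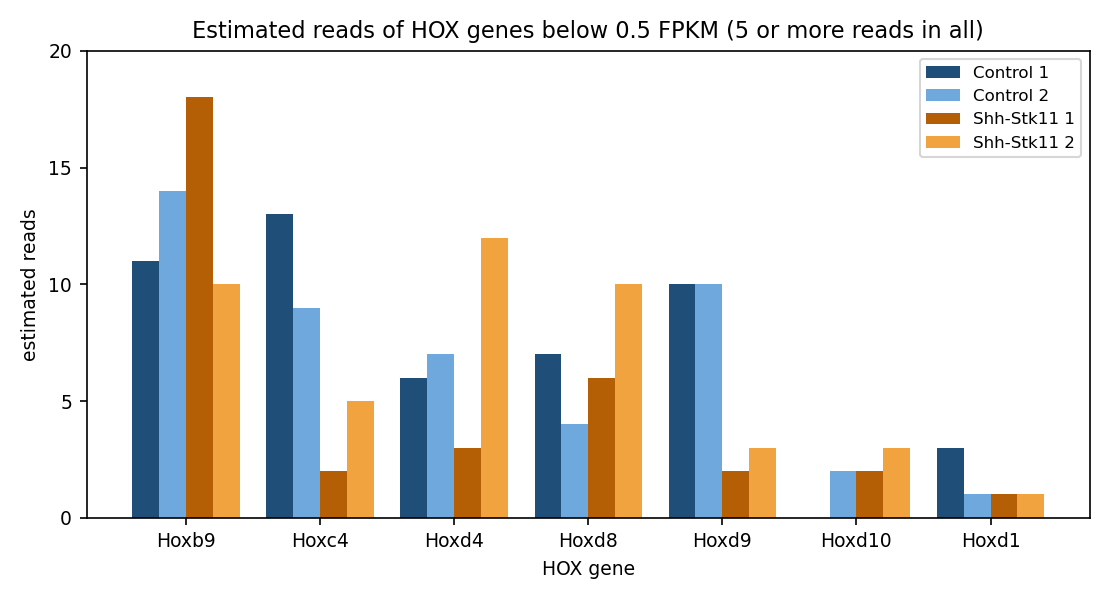
Estimated reads (vertical axis) of the 7 HOX genes below 0.5 FPKM with at least 5 reads over the 4 libraries, with 1 bar per library. Hoxc4 has 13 and 9 reads in Control against 2 and 5 in Shh-Stk11, Hoxd9 has 10 and 10 against 2 and 3, and Hoxb9 has 11 and 14 against 18 and 10; library depths differ.

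The remaining genes below 0.5 FPKM were at or near the limit of detection. Hoxd10 had at most 3 estimated reads in any library, Hoxd1 at most 3, Hoxd3 at most 2, and Hoxd13 and Hoxa10 at most 1. In FPKM Hoxd10 was higher in Shh-Stk11 without overlap (0 and 0.0400 against 0.0409 and 0.0570). Its reads were 0 and 2 in Control and 2 and 3 in Shh-Stk11. Control 2 and Shh-Stk11 1 thus had equal reads and differed in FPKM by the estimated depth only. Hoxb1 had 1 read in each Control library, or 2 by its transcript length, and 0 in Shh-Stk11. Hoxa9 had 3 and Hoxc5 had 4 reads in Control 1 and none elsewhere, and Hoxc8 and Hoxc13 had a single read in a single Shh-Stk11 library. Hoxa11, Hoxa13, Hoxb13, Hoxc6, Hoxc9, Hoxc10, Hoxc11, Hoxc12, Hoxd11 and Hoxd12 were listed at 0 in all 4 libraries. These include genes that pattern kidney, limb, genitalia and tail. A count of 0 allows up to 3 reads, which in Control 1 corresponds to 0.0251 FPKM for Hoxd11 and 0.0961 FPKM for Hoxc12, the extremes of the 10, and covers counting error only.

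The microRNA genes of the clusters had rows in the table, and all 6 (Mir10a, Mir10b, Mir196a-1, Mir196a-2, Mir196b and Mir615) were listed at 0 in every library, which for hairpins of 68 to 110 bases in this kind of library says little about the mature forms. Their sequences are shown because 5 of these genes form 2 families that repeat between clusters, here with the seed (bases 2 to 8) in capitals.
miR-10a-5p: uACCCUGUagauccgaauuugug
miR-10b-5p: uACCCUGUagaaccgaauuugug
miR-196a-5p: uAGGUAGUuucauguuguuggg
miR-196b-5p: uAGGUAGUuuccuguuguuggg
The sequences are from RefSeq (GRCm38.p6). miR-10a-5p lies in the Hoxb cluster at chr11:96317186-96317208 (plus strand) and miR-10b-5p in the Hoxd cluster at chr2:74726074-74726096 (plus). They share the seed ACCCUGU and are identical at 22 of 23 bases, with the difference U12A counted from the 5′ end. miR-196a-5p comes from the Hoxb cluster at chr11:96265187-96265208 (plus) and from the Hoxc cluster at chr15:102973365-102973386 (plus). miR-196b-5p lies in the Hoxa cluster at chr6:52230129-52230150 (minus). They share the seed AGGUAGU and are identical at 21 of 22 bases, with the difference A12C. The first family thus sits in the Hoxb cluster and in the Hoxd cluster, which had no gene at 0.5 FPKM, and the second in the Hoxa and Hoxb clusters and in the Hoxc cluster, which had none either.

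Of the long non-coding RNAs looked for by name, 3 had a row. Hoxa11os was listed at 0 throughout, and Hoxd3os1 had 0.0539 FPKM in Control 2 and 0 elsewhere. Hoxaas3, transcribed against Hoxa7 and neighbouring genes, was at 0.376 and 0.302 FPKM in Control and at 0.722 and 0.479 FPKM in Shh-Stk11. Its groups lay apart, higher in Shh-Stk11, and with no filter its log2 fold change was 0.66 ± 0.26 (SE, adjusted p = 0.384, limma). Gm53, a long transcript between Hoxb13 and Hoxb9 that was named after its values were seen, was at 0.320 and 0.850 FPKM in Control and at 0.949 and 0.808 FPKM in Shh-Stk11, with overlap (log2 fold change 0.63 ± 0.44, adjusted p = 0.559). In GENCODE M21 Hoxaas3 covers 20.4% of the exon bases of Hoxa7 on the opposite strand, Hoxb3os covers 52.9% of those of Hoxb3 and 27.3% of those of Hoxb2, and Hoxd3 and Hoxd4 share exon bases on the same strand. The strand setting of the libraries was not stated, so reads of these partners cannot be told apart.

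The partners and regulators of HOX proteins were read from lists. All 9 TALE cofactors, the PBX, MEIS and PKNOX homeodomain proteins that bind DNA with HOX proteins, were tested, and 8 were lower in Shh-Stk11, 6 of them without overlap, with 0 past the test (limma) and 3 at an unadjusted p below 0.05. Of all genes tested 58.3% were lower, 27.6% were lower without overlap and 15.2% had an unadjusted p below 0.05. The median log2 fold change of the cofactors was -0.27. The highest, Pbx2, was at 42.8 and 41.9 FPKM in Control and at 34.0 and 39.1 FPKM in Shh-Stk11 (adjusted p = 0.493). Pbx4, named after its values were seen, had the lowest adjusted p of the list, with 3.18 and 3.55 FPKM in Control and 2.07 and 1.71 FPKM in Shh-Stk11 (log2 fold change -0.80 ± 0.19, adjusted p = 0.0973). The median of the cofactors was thus close to that of the HOX genes, and neither set held a gene that passed the threshold.

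Of 19 genes of retinoic acid synthesis, binding and breakdown, 13 were tested, 1 passed the test, against 2.27% of all genes tested, and 8 were lower (61.5%, against 58.3% of all genes), with a median of -0.07. Dhrs3, which returns retinaldehyde to retinol and so limits retinoic acid, was at 43.3 and 35.0 FPKM in Control and rose to 69.4 and 75.4 FPKM in Shh-Stk11. Its log2 fold change was 0.89 ± 0.15 (SE, adjusted p = 0.0385), and the call held in 8 of 15 alternative settings, with adjusted p-values from 0.0208 to 0.153, and was lost when any 1 of the 4 libraries was left out.

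Of 30 Polycomb genes 0 passed the test, 3 had an unadjusted p below 0.05, against 15.2% of all genes tested, and the median was 0.0085. The highest, Rnf2, the ubiquitin ligase of the first Polycomb complex, was at 45.4 and 48.4 FPKM in Control and at 48.7 and 45.9 FPKM in Shh-Stk11. Of 12 Trithorax genes with a row 0 passed, 3 had an unadjusted p below 0.05, against the same 15.2%, and the median was 0.02. The highest, Dpy30, a subunit of histone H3 methyltransferase complexes, was at 107 and 127 FPKM in Control and at 90.8 and 100.1 FPKM in Shh-Stk11. Neither list shared the negative median of the HOX genes. Of 15 ParaHox genes and relatives only Meox1 and Meox2 reached the filter, and 0 passed the test (limma; 0 at an unadjusted p below 0.05). Meox2, a mesenchymal homeobox gene, was at 38.0 and 34.9 FPKM in Control and at 29.3 and 36.9 FPKM in Shh-Stk11.

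**Figure D5:**
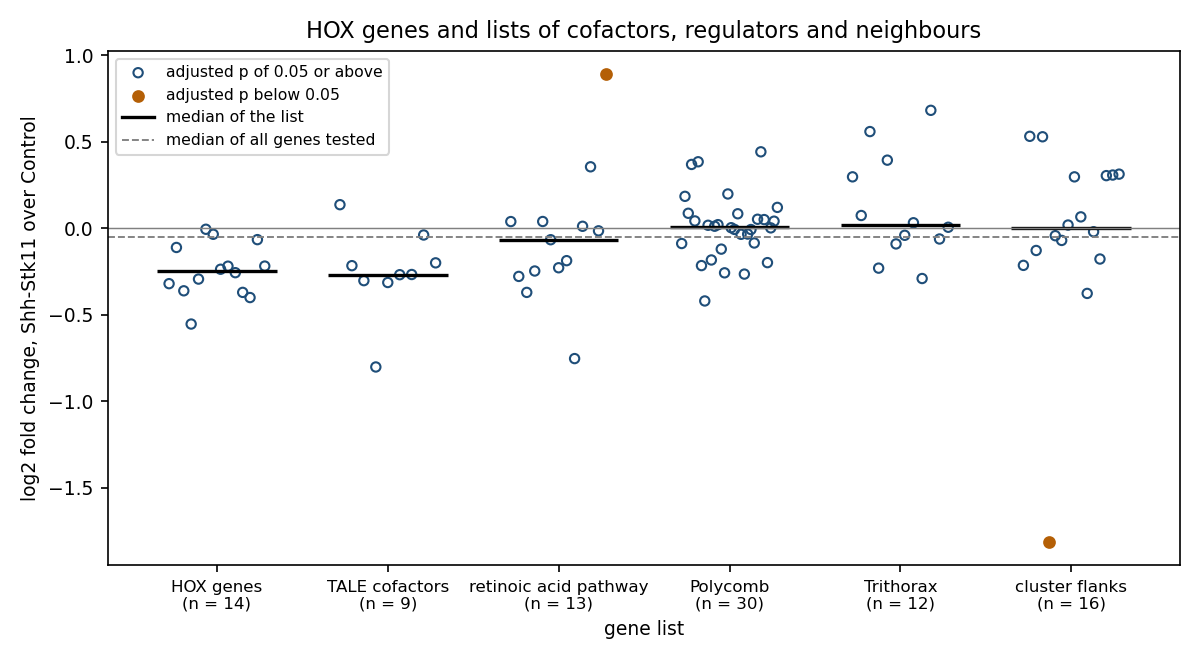
Log2 fold change (Shh-Stk11 over Control, vertical axis) of the 14 HOX genes and of the genes tested in 5 lists, with 1 point per gene, a black bar at each median and filled points for an adjusted p below 0.05. The HOX genes and the TALE cofactors have medians of -0.25 and -0.27, the other medians lie between -0.07 and 0.02, and the filled points are Dhrs3 at 0.89 and Ttll6 at -1.81.

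Genes that flank the clusters were divided evenly in direction. Of 16 flanking genes tested, 8 were higher and 8 lower, with a median of 0.0002, and 1 passed the test. Of all genes tested 58.3% were lower and 2.27% passed. The gene that passed was Ttll6, a tubulin polyglutamylase of cilia beyond the Hoxb13 end of the Hoxb cluster, which was at 2.64 and 2.88 FPKM in Control and fell to 0.680 and 0.751 FPKM in Shh-Stk11 (log2 fold change -1.81 ± 0.22, adjusted p = 0.0141). The call held in 10 of 14 alternative settings, with adjusted p-values from 0.00796 to 0.123, and was lost without Control 1 or without Control 2. The highest flanking gene, Nfe2l2 on the flank of the Hoxd cluster, was at 133 and 113 FPKM in Control and at 143 and 162 FPKM in Shh-Stk11 (adjusted p = 0.402). Evx2, the homeobox gene next to Hoxd13, was listed at 0 in all 4 libraries, and Hoxd13 had at most 1 estimated read in each.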

How the data were processed

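Lungs of E16.5 embryos were lysed, total RNA was extracted and libraries were sequenced by the authors as single-end reads of 50 bases. The submitters' processing notes name TopHat2 2.0.13 and Cufflinks 2.2.1, and the builds GRCm38 and mm9 without saying which was used for the table, so sequences and positions are those of RefSeq (GRCm38.p6). The authors deposited the measurements as 1 table of FPKM values, with a row per gene, in which all 4 value columns matched a label; strand setting and scaling between libraries were not given in the sources used here. The members and gene lists were chosen with earlier results of these data known. Symbols were matched to GENCODE M21 directly (20242), by synonym (1884) or not at all (430).

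FPKM are not counts, so limma 3.58.1 (R 4.3.3) was run on log2(FPKM + 0.1) over 13770 genes whose mean reached 0.5 FPKM, with genotype as the only term, eBayes with a trend, two-sided tests and Benjamini-Hochberg adjustment over all genes tested (threshold 0.05). A fold change on this scale understates that of low genes. Among 1721 genes below 0.3 FPKM, 76.3% had values that were whole multiples of a step within 0.2%, against 0.116% with the library factors set off. Read numbers and depth (30.6 M to 37.8 M) were estimated from these steps, with 204 bases taken off the transcript length, and carry any scaling by the authors. The method was tested on simulated data. Named were the HOX genes, the cluster non-coding RNAs with a row, Stk11, and from each list the genes past the threshold and the highest gene; 1 HOX gene and 1 gene of the retinoic acid list are not reported here, but stay in the counts, sums and medians. Alternatives were other pseudocounts, filters, scalings and moderation, a length and GC trend, a replicate block and leaving out each library.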

Additional observations from a re-analysis of the deposited data

How the results depend on the processing

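No HOX gene passed the threshold in any of the 15 alternative settings, and the lowest adjusted p among the 14 genes tested was 0.157 in any of them, and that of Hoxd9, with no filter, was 0.156. Of 203 combinations of a gene and an alternative, 15 changed sign, in 5 genes. With quantile normalization Hoxa6 was at 0.073 and Hoxa7 at 0.066, and with median ratio scaling at 0.042 and 0.012. After removal of the length and GC trend, Hoxa2 was at 0.0068, Hoxa6 at 0.22, Hoxa7 at 0.095 and Hoxb7 at 0.097. With 1 library left out Hoxa6 lay between -0.11 (without Shh-Stk11 2) and 0.10 (without Shh-Stk11 1), Hoxa7 between -0.46 (without Control 2) and 0.39 (without Control 1), Hoxb7 between -0.16 (without Control 2) and 0.030 (without Control 1) and Hoxb8 between -0.45 (without Control 1) and 0.017 (without Control 2). The median over the HOX genes tested stayed below 0 in all 15, at -0.13 with the length and GC trend removed and at -0.35 to -0.16 with 1 library left out.

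Among all genes tested, 313 were called. The count was 200 at a mean of at least 5 FPKM, 61 with no filter, 191 with the length and GC trend removed, 13 with the replicate block and 38 to 191 with 1 library left out. In the lists of cofactors, regulators, relatives and flanking genes 82 genes were tested and 2 were called, against 2.27% of all genes tested. That count was 1 at a mean of at least 5 FPKM and with eBayes without the trend, and 0 with no filter and with the replicate block. With 1 library of a genotype left out, the remaining one was assumed to vary like the other group. The labels do not say whether the replicate numbers pair the samples. The correlation of same-numbered deviations was -0.11, which with 2 libraries per genotype cannot exclude a shared litter or batch. With the numbers crossed, an alternative chosen after seeing the data, 675 genes were called over the whole table and 0 HOX genes. The median of the Hoxa genes was 0.751 FPKM over the 4 libraries and 0.603 in Shh-Stk11 2 alone, that of the Hoxb genes 2.13 and 2.41 in Control 2 alone, and that of the Hoxd genes 0.0261 and 0 in Control 1 alone. The causes of these differences were not tested.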
